A study of Mus musculus with 4 samples.

Results

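The genes described here are 10 genes of the astrocyte lineage, Aldh1l1, Gfap, Aqp4, S100b, Aldoc, Apoe, Clu, Glul, Sparcl1 and Slc1a2, in a Nanopore long-read table of 14949 genes from mouse neural stem cells. Aldh1l1 was chosen by its pattern across the libraries, so its values are given as a description. The other members were taken as commonly used astrocyte markers. A gene's reads are the sum over all isoforms that carry its Ensembl identifier. By that rule 9 of the 10 genes had a row, with 25 isoforms of 46637 that named a gene, and 7 passed the filter on low counts that 9882 genes passed.

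Neural stem cells were grown as neurospheres in bFGF and EGF from the neocortex of floxed embryos, and the study asked whether splicing needs Tut1, which encodes the uridylyltransferase of U6 snRNA. The control, called Tut1f/f here by its genotype and titled wild type, was given an empty lipid nanoparticle (LNP). The other libraries came from cells given LNP with mRNA of the Cre recombinase, which removes floxed exons, and are called here by their labels: Tut1 KO (genotype Tut1f/f too), P53 KO (p53f/f, that is, floxed Trp53) and Tut1 and P53 KO (both alleles floxed). Treatment lasted 3 days and each group was 1 library, from 1 culture as far as the labels say. Tut1f/f was the only library without Cre mRNA, so Cre mRNA and genotype cannot be told apart in any comparison with it. In these whole cultures fewer cells of a type and less RNA per cell also cannot be told apart.

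Astrocytes arise late in cortical development from radial glia, the stem cells of the cortex. LIF and BMP signals, acting through STAT3 and SMAD proteins, together with NFI factors and SOX9, open and switch on genes such as Gfap. Mature astrocytes take up glutamate, convert it to glutamine, move water and potassium, and supply neurons with lipids in APOE particles. Several of their genes, among them Aldoc, Sparcl1 and Slc1a3, are already on in radial glia, whereas Gfap and Aqp4 mark later cells.

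The libraries held 2863392 to 4244467 reads that named a gene, which puts 3 reads, the floor used here, at 0.754 to 1.02 reads per 1e6 gene reads (CPM, with TMM scaling). A further 17.2% of reads in Tut1f/f and 27.3% to 30.2% in the other libraries named only a position in the genome. Of the reads that named a gene, the ribosomal RNA gene CT010467.1 held 18.7% in Tut1f/f and 5.46% to 9.75% elsewhere. Tut1 reads went against 2 of the labels: they numbered 37 in Tut1f/f, 11 in Tut1 KO, as its label has it, but 14 in the library labelled P53 KO and 27 in the library labelled Tut1 and P53 KO. The floxed exon could be lost without loss of reads, which gene sums do not show. Trp53 had 175, 67, 10 and 19 reads in the same order. In Tut1 KO, where Trp53 is not floxed, its log2 ratio to Tut1f/f was -0.99 (-1.42 to -0.58). Xist, which is on in female cells, had 0, 44, 49 and 0 reads, and the Y-linked gene Kdm5d had 102, 0, 0 and 96. Tut1f/f and the library labelled Tut1 and P53 KO therefore carried male RNA and the other two female RNA. This split runs across both genotypes, and any result that separates the same pairs of libraries cannot be told apart from it. The Tut1 reads are such a result, at 9.30, 3.63, 4.02 and 9.15 CPM in the same order. All directions below rest on the labels.

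The cultures held RNA of stem cell genes and of some astrocyte genes. Of 12 radial glia and stem cell genes 10 had reads, from 9 to 20 per library for Prom1 to 30043 to 39422 for Fabp7, a fatty acid binding protein of radial glia. Notch1 and Msi1, also on this list, had none. A gene without reads here is therefore not shown to be off. Of 36 astrocyte genes besides the members 32 had a row. Gfap, the astrocyte intermediate filament, had no row, and Aqp4, the astrocyte water channel, had 0 to 4 reads. Of 10 microglia markers only P2ry12 had reads, 1 to 3 per library. All 7 endothelial markers were at 0, and of 7 mural cell and fibroblast markers 1 had a read, Col1a1 in the library labelled P53 KO. Neuron markers summed to 326 to 497 CPM and oligodendrocyte lineage markers to 465 to 738 CPM.

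Promoters are shown for 3 members with contrasting reads: Aldh1l1, which separated the libraries most; Apoe, which lay lower wherever the label includes P53 KO; and Gfap, without a row. Each is the RefSeq window of 300 bases on GRCm38.p6, from 250 bases before to 50 after the annotated start, 5′ to 3′ on the gene's strand. Capitals mark matches on either strand to 1 of 4 motifs. The STAT site was searched as TTCNNNGAA. The short form of the NFI site was searched as TTGGC, the TATA box as TATAAA and the box bound by NF-Y as CCAAT.
Aldh1l1, chr6:90550543-90550842, plus strand: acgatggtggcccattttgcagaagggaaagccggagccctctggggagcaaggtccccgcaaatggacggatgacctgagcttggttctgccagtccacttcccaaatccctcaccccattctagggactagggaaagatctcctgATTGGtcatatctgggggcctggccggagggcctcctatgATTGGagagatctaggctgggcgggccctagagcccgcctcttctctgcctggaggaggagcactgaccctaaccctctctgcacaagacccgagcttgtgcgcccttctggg
Apoe, chr7:19699139-19699438, minus strand: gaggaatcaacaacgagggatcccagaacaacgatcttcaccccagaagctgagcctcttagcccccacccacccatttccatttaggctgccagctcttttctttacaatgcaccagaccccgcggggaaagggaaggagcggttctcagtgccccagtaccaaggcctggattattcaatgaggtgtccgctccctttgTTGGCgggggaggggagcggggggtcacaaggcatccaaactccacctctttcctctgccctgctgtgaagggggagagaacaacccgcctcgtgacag
Gfap, chr11:102897151-102897450, minus strand: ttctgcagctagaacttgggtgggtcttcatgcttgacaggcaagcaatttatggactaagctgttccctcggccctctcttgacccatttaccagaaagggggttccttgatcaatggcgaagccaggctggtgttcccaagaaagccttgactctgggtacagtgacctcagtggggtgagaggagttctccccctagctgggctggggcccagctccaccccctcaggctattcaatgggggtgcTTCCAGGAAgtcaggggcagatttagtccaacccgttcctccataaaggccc

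The Aldh1l1 window held 2 CCAAT boxes, both on the opposite strand, at -103 and -63 from the start, and none of the other motifs. The Apoe window, 1 of 3 that the table gives for Apoe, held 1 NFI site at -49. The Gfap window held 1 STAT match at -2. Among all 32851 windows of this length the STAT motif was in 8.30%, the NFI site in 46.7%, the CCAAT box in 37.4% and the TATA box in 13.6%. Of the 10 members 7 had a window in the table. A match is a description of the letters and not a bound site.

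Aldh1l1 encodes 10-formyltetrahydrofolate dehydrogenase, which ends the use of one-carbon units by converting formyl folate to tetrahydrofolate and carbon dioxide. It lies on chr6 from 90486427 to 90600203 on the plus strand. It had 187 reads in Tut1f/f, 16 in Tut1 KO, 11 in the library labelled P53 KO and 71 in the library labelled Tut1 and P53 KO. These are 47.0 CPM (95% Poisson interval 40.5 to 54.3), 5.28 CPM (3.02 to 8.58), 3.16 CPM (1.58 to 5.65) and 24.1 CPM (18.8 to 30.4). Tut1f/f stood highest and the library labelled Tut1 and P53 KO next, with intervals that overlap neither each other nor those of the other libraries; the intervals of Tut1 KO and the library labelled P53 KO overlap.

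Against Tut1f/f, the log2 ratio of Aldh1l1 was -3.15 (95% interval -3.99 to -2.42) in Tut1 KO, which is 8.90-fold lower. It was -3.90 (-4.92 to -3.02) in the library labelled P53 KO, or 14.9-fold lower. In the library labelled Tut1 and P53 KO it was -0.97 (-1.38 to -0.56). With reads added that name only a position in the span, the ratios were nearer to 0, at -1.75 (-2.22 to -1.30) in Tut1 KO, -2.69 (-3.29 to -2.14) in the library labelled P53 KO and -0.62 (-0.96 to -0.28) in that labelled Tut1 and P53 KO. Within the Cre libraries, Aldh1l1 in the library labelled Tut1 and P53 KO lay above that labelled P53 KO by 2.93 (2.0 to 4.0) and above Tut1 KO by 2.19 (1.39 to 3.07). By the labels, Aldh1l1 was thus lower with Tut1 KO on intact Trp53 and higher with it on deleted Trp53. The second direction rests on the P53 KO and the Tut1 and P53 KO labels, against which the Tut1 reads went, and would turn to lower if these labels were exchanged. These values chose the gene and carry no test.

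**Figure D1:**
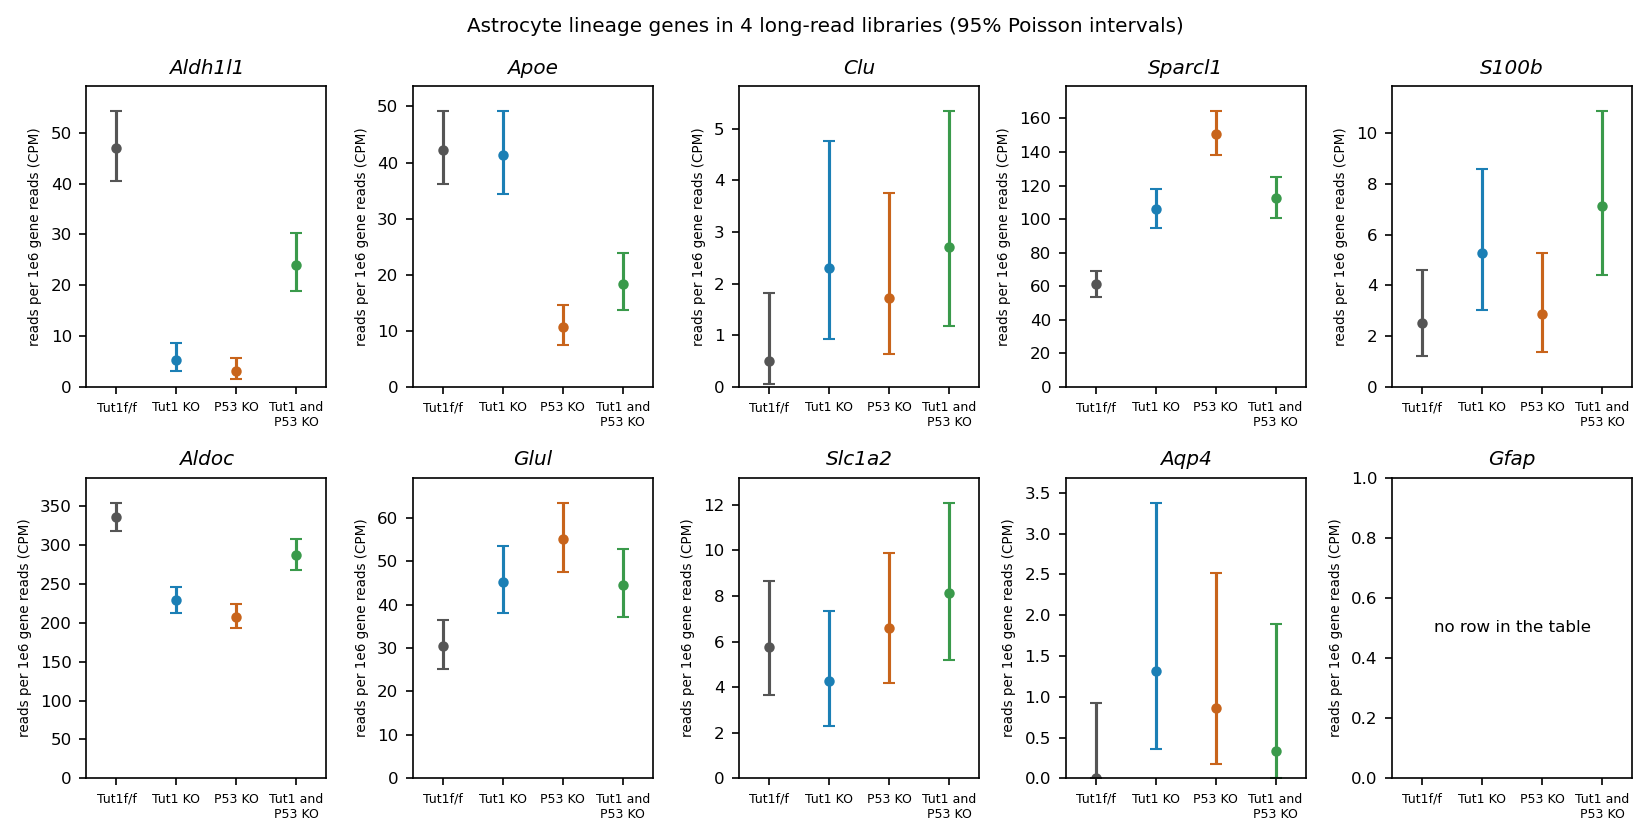
CPM (TMM-scaled reads per 1e6 gene reads, each panel on its own linear axis) of the 10 astrocyte lineage genes in the 4 libraries; points are single libraries and bars are 95% Poisson intervals, which cover counting error only. Aldh1l1 runs from 47.0 in Tut1f/f to 3.16 in the library labelled P53 KO, Apoe is low in both libraries with a P53 label, Sparcl1 is lowest in Tut1f/f, and Gfap has no row.

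Both Aldh1l1 isoforms followed the same order of libraries. Their reads make up the gene sum that chose Aldh1l1, so this order is no separate result. For Aldh1l1-201 the order of Tut1 KO and the library labelled P53 KO is not resolved, at a log2 ratio of 0.52 (-1.69 to 2.86). A variant of Aldh1l1-203 (90550789 to 90600203, 23 exons) had 96, 11, 7 and 47 reads, and Aldh1l1-201 (90550805 to 90599169, 23 exons) had 91, 5, 4 and 24. Both are spliced, protein-coding models that begin near the promoter window printed above. The share of the Aldh1l1-203 variant was 51.3% (Wilson 95% interval 44.2 to 58.4) in Tut1f/f and 66.2% (54.6 to 76.1) in the library labelled Tut1 and P53 KO, with intervals that overlap. With 16 and 11 reads, the remaining libraries were too shallow to compare shares.

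Reads named only by position did not follow that order. Inside the Aldh1l1 span they numbered 34 in Tut1f/f, 34 in Tut1 KO, 19 in the library labelled P53 KO and 36 in the library labelled Tut1 and P53 KO. They made 15.4% (11.2 to 20.7), 68.0% (54.2 to 79.2), 63.3% (45.5 to 78.1) and 33.6% (25.4 to 43.0) of all reads in the span. Most lay before the isoforms' start at 90550789, where 8 of the 15 entries held 27, 30, 16 and 28 reads. The gene models Gm45901 and Gm44236 overlap the span before that start and the antisense model Gm15756 after it. Reads named by position may therefore not be of Aldh1l1. The entry with the most reads, at 90530000 to the nearest 1000 bases, had 20, 9, 6 and 8. From that start on, 7 entries held 7, 4, 3 and 8 reads. The log2 ratio of position-named reads to Tut1f/f was 0.39 (-0.34 to 1.12) in Tut1 KO, against -3.15 for reads that named the gene.

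The genes around Aldh1l1 did not share its pattern. Of 18 genes within 200 kb, 4 passed the filter. Zxdc, a zinc finger gene, had 14, 51, 26 and 27 reads, Cfap100, a cilia gene, 54, 52, 66 and 62, Slc41a3, a magnesium carrier, 14, 17, 11 and 9, and Iqsec1, an ARF exchange factor, 49, 57, 67 and 45. None of them was low in the same pair of libraries as Aldh1l1.

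Among 9881 other genes, the 5 with the profile nearest to that of Aldh1l1 were Clcn6, Sec23a, Slc19a1, Jpt2 and Elmod2. Likeness was the Euclidean distance between log2(CPM + 0.5) over the 4 libraries, each gene centred on its mean, which also orders genes by chance over so few points. Clcn6, an endosomal chloride exchanger, was nearest at a distance of 0.604 with 30, 2, 2 and 12 reads. Sec23a, a coat protein of vesicles leaving the endoplasmic reticulum, had 90, 11, 8 and 32, and Slc19a1, the reduced folate carrier, had 62, 8, 5 and 23. Jpt2 had 246, 35, 18 and 78 reads and Elmod2, which acts on ARL proteins, 16, 1, 0 and 12. The 5 were chosen for this likeness, so their order of libraries is no separate result. Of the astrocyte genes listed besides the members, Acsbg1, an acyl-CoA synthetase, was nearest at 1.13, rank 39, followed by Acsl6 at 1.54, rank 154, and Atp1b2 at 1.63, rank 218. Of the members Aldoc was nearest at 2.47, rank 1821, and Sparcl1 farthest at 3.82, rank 8783.

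**Figure D2:**
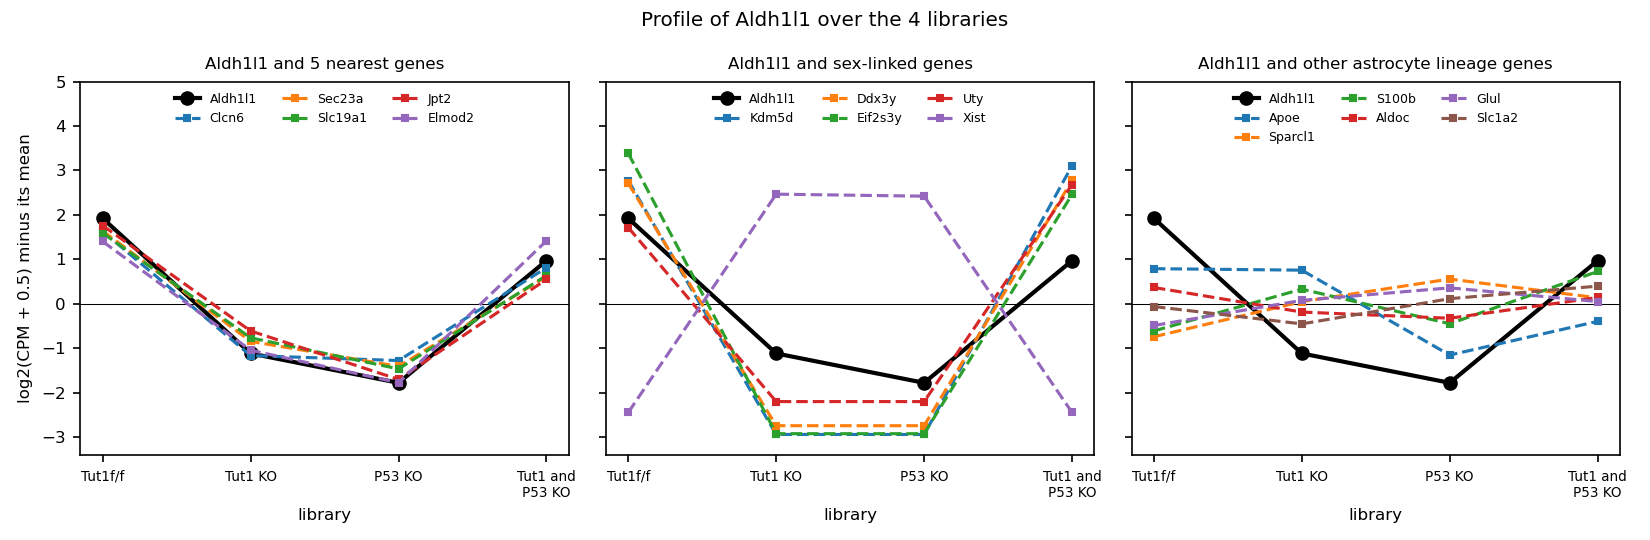
log2(CPM + 0.5) minus its mean over the 4 libraries (vertical) by library (horizontal) for Aldh1l1 (black, in each panel) and for its 5 nearest genes, for 5 sex-linked genes, and for the other members past the filter; each point is 1 library. Aldh1l1 is high in the same libraries as the Y-linked genes Kdm5d, Ddx3y, Eif2s3y and Uty and low in those with Xist, and Aldoc has the same order of libraries over a narrower range.

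The sex-linked genes separate the libraries in the same pairs. Ddx3y had 85, 0, 0 and 66 reads, Eif2s3y 155, 0, 0 and 60, and Uty 28, 0, 0 and 42. Aldh1l1 was 47.0 and 24.1 CPM in the male libraries and 5.28 and 3.16 CPM in the female ones. With 2 libraries of each, an effect of Tut1 that differs by Trp53 status, exchanged labels of the P53 KO and the Tut1 and P53 KO libraries, the sex of the embryo and the origin of the culture cannot be told apart for this gene.

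A gene was counted as different at a ratio of at least 2-fold with a 95% interval that excludes no change. Aldh1l1, counted lower in Tut1 KO and in the library labelled P53 KO, was chosen by such ratios, so counts are given over the 6 other members past the filter. In Tut1 KO 0 of these 6 were counted against Tut1f/f, where 26.0% of all genes were. In the library labelled P53 KO 2 were counted, Sparcl1 higher and Apoe lower, where 27.8% of all genes were. In the library labelled Tut1 and P53 KO 2 were counted, S100b higher and Apoe lower, where 20.1% were. On the scale of log2(CPM + 0.5), used for all medians here, the median differences of the 6 were 0.27, 0.17 and 0.50 in these comparisons, beside -0.01, -0.02 and -0.01 for all genes past the filter. The comparisons share the Tut1f/f library.

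Between Cre libraries, 1 of the 6 was counted in each comparison. S100b lay higher in the library labelled Tut1 and P53 KO than in that labelled P53 KO, where 7.24% of genes were counted. Apoe lay lower in the library labelled Tut1 and P53 KO than in Tut1 KO, where 4.49% were counted, and higher in Tut1 KO than in the library labelled P53 KO, where 3.35% were.

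**Figure D3:**
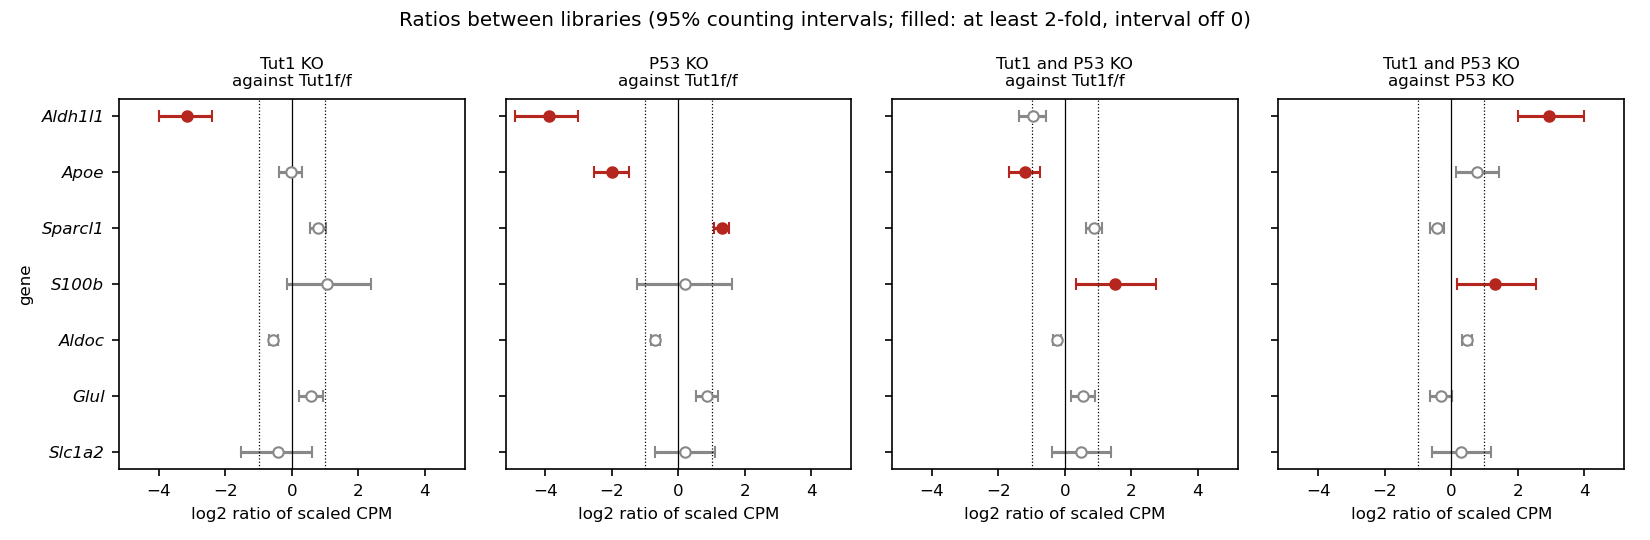
Log2 ratios of TMM-scaled CPM (horizontal) of the 7 members past the filter (vertical) in 4 comparisons of single libraries, with 95% counting intervals; filled points are at least 2-fold (dotted lines) with an interval that excludes 0. Aldh1l1 is counted in 3 panels, with -3.15 against Tut1f/f in Tut1 KO and 2.93 in the rightmost panel, and Aldoc, Glul and Slc1a2 are counted in none.

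Lipid transport genes came next. Apoe encodes the apolipoprotein of lipid particles that astrocytes secrete. It had 168 reads in Tut1f/f, 125 in Tut1 KO, 37 in the library labelled P53 KO and 54 in the library labelled Tut1 and P53 KO. The levels were 42.2 CPM (36.1 to 49.1), 41.3 CPM (34.4 to 49.2), 10.6 CPM (7.48 to 14.6) and 18.3 CPM (13.7 to 23.9). Both libraries with a P53 label lay below both others with no overlap of intervals.

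With the P53 KO label Apoe had a log2 ratio of -1.99 (-2.55 to -1.47) to Tut1f/f, and with the Tut1 and P53 KO label one of -1.21 (-1.68 to -0.76). In Tut1 KO it was -0.03 (-0.38 to 0.31). Apoe thus split the libraries by Trp53 label, with 1 male and 1 female library on each side. With 1 library a group, the cause of this split was not tested. A single isoform, a variant of Apoe-206, held 88.7% to 96.3% of its reads. Plain Ensembl transcripts, which leave that variant out, held 19, 4, 3 and 1 reads of Apoe. Their log2 ratios against Tut1f/f stood at -1.85 (-3.87 to -0.27) in Tut1 KO and -2.47 (-4.87 to -0.71) in the library labelled P53 KO, and differences between the Cre libraries were not detectable.

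An edgeR model that adds the labelled Trp53 and Tut1 states of the 4 libraries, with 1 residual degree of freedom, gave the test across libraries. That residual sets Tut1f/f and the library labelled Tut1 and P53 KO against the other libraries, the same split as the sex-linked genes. The error of this fit is therefore not a spread of replicates, and a gene not called is not shown to be unchanged. For Trp53 status, edgeR gave Apoe a log2 fold change of -1.57 (SE 0.581), unadjusted p = 0.00683 and a Benjamini-Hochberg adjusted p of 0.9998 over 9882 genes. Of all genes 1 was called (0.0101%), and 147 had an edgeR p under 0.05 before adjustment; DESeq2 called 1, with 62. Calls for Tut1 status numbered 0 (0%) by edgeR, which gave 171 genes a p under 0.05 before adjustment, and 0 by DESeq2, with 70. Aldh1l1 was left out of the member counts of this test, and 0 of the 6 other members were called for either status. Apoe alone of these 6 had an unadjusted p under 0.05, for Trp53 status.

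Clu encodes clusterin, a secreted chaperone also carried in lipid particles. It had 2, 7, 6 and 8 reads and did not pass the filter. In Tut1f/f it was under the floor. With 8 against 2 reads, the log2 ratio of the library labelled Tut1 and P53 KO to Tut1f/f was 2.43 (0.11 to 5.70), and the intervals of the other ratios of Clu include 0.

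Sparcl1 encodes hevin, a matrix protein with which astrocytes promote synapses. It had 243 reads in Tut1f/f, 321 in Tut1 KO, 526 in the library labelled P53 KO and 332 in the library labelled Tut1 and P53 KO, or 61.1 CPM (53.7 to 69.3), 106 CPM (94.7 to 118), 151 CPM (138 to 164) and 113 CPM (101 to 125). Tut1f/f was lowest and the library labelled P53 KO highest, while the intervals of the other two overlap. Set against Tut1f/f, the Cre libraries stood at log2 ratios of 0.79 (0.55 to 1.04), 1.30 (1.08 to 1.53) and 0.88 (0.64 to 1.13).

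Sparcl1 was also the only member with a counted difference in isoform share, which asked for 10 percentage points or more and Wilson intervals that do not overlap. The full-length model Sparcl1-201 (chr5, 104079111 to 104113733, minus strand, 11 exons) took 83.1% (77.9 to 87.3) of Sparcl1 reads in Tut1f/f. In Tut1 KO it took 67.0% (61.7 to 71.9), in the library labelled P53 KO 68.1% (64.0 to 71.9) and in the library labelled Tut1 and P53 KO 78.3% (73.6 to 82.4). The share was therefore lower in the 2 female libraries than in the 2 male ones.

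The rest of the Sparcl1 reads were in 3 isoforms named by a read, whose exons the table does not give. The one with the most reads over all libraries had 8, 39, 64 and 26 reads, or 3.29%, 12.1%, 12.2% and 7.83%. Of the members' isoforms, 1 of 13 was counted in Tut1 KO against Tut1f/f, 1 of 13 in the library labelled P53 KO and 0 of 15 in the library labelled Tut1 and P53 KO, where 8.85%, 9.23% and 7.12% of all isoforms compared were counted. That labelled Tut1 and P53 KO had 1 of 11 counted against each of the library labelled P53 KO and Tut1 KO, where 2.39% and 1.10% of all isoforms were counted. Each count is Sparcl1-201.

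S100b encodes a calcium-binding protein of astrocytes and of some oligodendrocyte precursors. Its reads were few: 10 in Tut1f/f, 16 in Tut1 KO, 10 in the library labelled P53 KO and 21 in the library labelled Tut1 and P53 KO, all of S100b-201. The log2 ratio was 1.5 (0.35 to 2.75) in the last of these against Tut1f/f and 1.31 (0.16 to 2.56) against the library labelled P53 KO. The CPM intervals of these libraries, 2.51 (1.21 to 4.62), 2.87 (1.38 to 5.28) and 7.12 (4.41 to 10.9), overlap at their ends. The span of S100b overlaps the gene Dip2a, and its promoter window held 4 NFI sites, 2 of them within 30 bases before the start, and 2 CCAAT boxes that overlap such sites.

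The metabolic enzymes of Aldoc and Glul moved less than the threshold, unlike Aldh1l1. Aldoc encodes aldolase C, the glycolytic aldolase of astrocytes and radial glia, and had 1336, 693, 724 and 848 reads in the same order of libraries. Its levels were 336 CPM (318 to 354), 229 CPM (212 to 246), 208 CPM (193 to 223) and 287 CPM (268 to 307). The 2 female libraries lay below the 2 male ones, by log2 ratios to Tut1f/f of -0.55 (-0.69 to -0.42), -0.69 (-0.83 to -0.56) and, for the library labelled Tut1 and P53 KO, -0.23 (-0.35 to -0.10). Aldoc-201 held 80.8% to 84.3% of its reads in every library.

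Glul encodes glutamine synthetase, which turns glutamate and ammonia into glutamine. It had 121, 137, 192 and 131 reads, or 30.4 CPM (25.2 to 36.4), 45.2 CPM (38.0 to 53.5), 55.1 CPM (47.6 to 63.5) and 44.4 CPM (37.1 to 52.7). Tut1f/f was lowest, and the intervals of the Cre libraries overlap one another. Each Cre library stood above Tut1f/f, at log2 ratios of 0.57 (0.21 to 0.94), 0.86 (0.52 to 1.20) and 0.55 (0.18 to 0.91), all under 2-fold with an interval above 0. The Glul promoter window held 2 CCAAT boxes, each overlapping an NFI site.

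Slc1a2 encodes GLT-1, the main glutamate transporter of mature astrocytes. Entries that named it had 23, 13, 23 and 24 reads, all of a variant of Slc1a2-202. The levels of 5.78 CPM (3.67 to 8.68), 4.29 CPM (2.29 to 7.34), 6.60 CPM (4.18 to 9.90) and 8.13 CPM (5.21 to 12.1) have intervals that all overlap. The related transporter Slc1a3 (GLAST), which radial glia already use, had 1149, 984, 1010 and 909 reads.

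For Slc1a2 most reads were in entries named by position. These held 112, 176, 153 and 118 reads in its span, 83.0% to 93.1% of the total. An entry at 102786000 on chr2, to the nearest 1000 bases and 4784 bases before the 3′ end of the gene, held 87, 109, 107 and 85 of them. The long non-coding gene model Gm13872 overlaps the span, and the strand of the entry is not known. Summed with the reads that named the gene, Slc1a2 reached 33.9, 62.4, 50.5 and 48.1 CPM, with Tut1f/f lowest. The log2 ratio of Tut1 KO to Tut1f/f thereby went from -0.43 to 0.88.

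**Figure D4:**
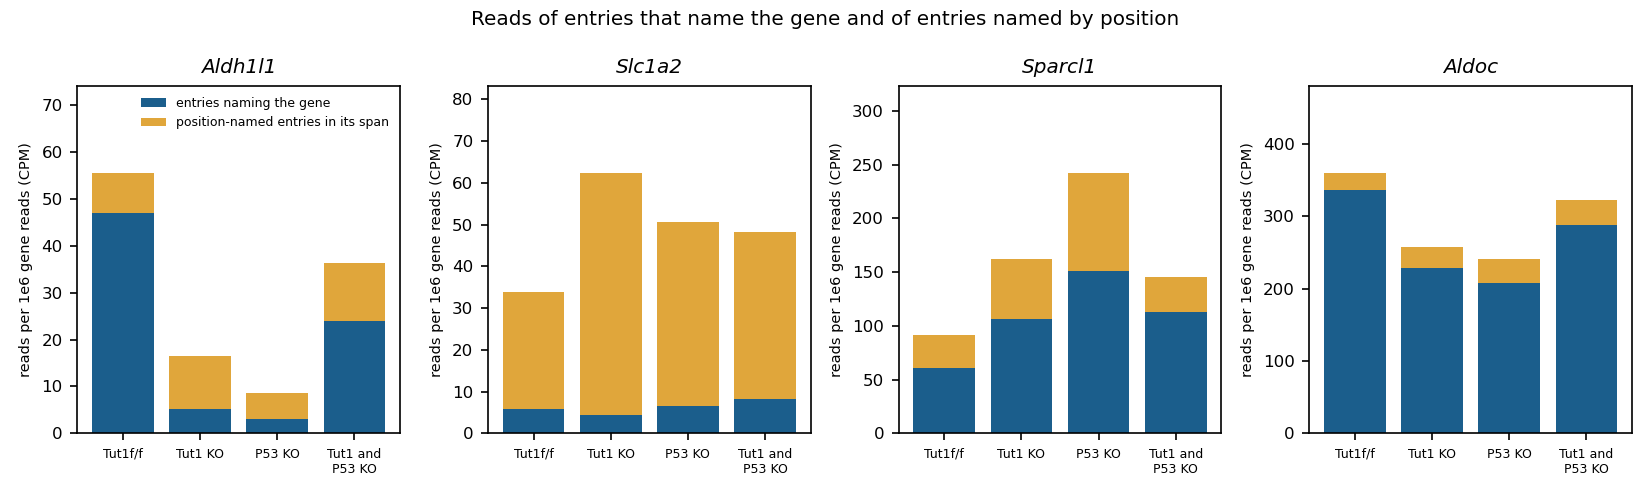
CPM (vertical, stacked bars from 0) of entries that name the gene (blue) and of entries in its span named only by a position (yellow), for Aldh1l1, Slc1a2, Sparcl1 and Aldoc in the 4 libraries (horizontal), without error bars. Position-named reads are 83.0% to 93.1% of Slc1a2 and 6.64% to 13.9% of Aldoc, and in Aldh1l1 their share runs from 15.4% in Tut1f/f to 68.0% in Tut1 KO.

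Sparcl1 had 120, 171, 319 and 98 position-named reads, of which 100, 108, 220 and 65 were at the 3′ end of the gene (104079000). Aldoc had 95, 88, 117 and 102, all in 1 entry 781 bases before its 3′ end. The single position-named entry of Gfap, 664 bases before its 3′ end, had 1, 3, 1 and 2 reads. Apoe and Clu had none. The table assigns none of these reads to a gene.

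Aqp4, the water channel of astrocyte endfeet, had 0, 4, 3 and 1 reads in a variant of Aqp4-201. The 0 in Tut1f/f is under the floor of 3 reads, 0.754 CPM there, and the largest value, 1.32 CPM (0.360 to 3.38), is 4 reads. Aqp4 did not pass the filter. With position-named reads in its span added, it had 6 reads in Tut1 KO against 0 in Tut1f/f, with a lower limit of 0.63 for the log2 ratio. With no row, Gfap is below the same floors of 0.754 to 1.02 CPM if the table lists every entry with a read. This leaves out the position-named entry in its span, which at 0.990 CPM in Tut1 KO was at the floor of that library.

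Other astrocyte genes were split between both directions. Of 36 listed, 27 passed the filter, and in Tut1 KO 5 were counted higher and 7 lower than Tut1f/f, in the library labelled P53 KO 4 and 8, and in the library labelled Tut1 and P53 KO 4 and 4. Of all genes, 12.7%, 12.5% and 10.3% were counted higher and 13.3%, 15.3% and 9.76% lower in these comparisons. The median differences in log2(CPM + 0.5) were -0.13, -0.47 and -0.12. Among the genes counted lower, Atp1b2, a subunit of the sodium pump, had 242, 20, 23 and 29 reads, Acsbg1 575, 64, 42 and 100, and Bcan, the proteoglycan brevican, 137, 29, 44 and 15. Among those counted higher, Nfib had 86, 184, 217 and 190 reads and Nfix 33, 61, 61 and 72; both are NFI factors. Slc4a4, a bicarbonate transporter, had 72, 175, 162 and 135. Each of these 6 was counted in all 3 comparisons with Tut1f/f, the one library without Cre mRNA, and Acsbg1 also lay higher in the library labelled Tut1 and P53 KO than in that labelled P53 KO by a log2 ratio of 1.49 (0.96 to 2.05).

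Genes of signalling to astrocytes were counted in 1 direction. Of 25 genes of LIF and BMP signalling 14 passed the filter, and 7, 5 and 5 were counted higher than Tut1f/f in Tut1 KO, the library labelled P53 KO and that labelled Tut1 and P53 KO, with 0 lower. The shares of all genes counted higher were the 12.7%, 12.5% and 10.3% given above. The list's median differences in log2(CPM + 0.5) were 0.97, 0.82 and 0.74. Crebbp, a histone acetyltransferase that joins STAT3 and SMAD proteins, had 107, 401, 444 and 334 reads. Lifr, the LIF receptor, had 9, 21, 23 and 19, Bmpr2, a BMP receptor, 8, 17, 22 and 21, and the kinase gene Jak2 39, 71, 79 and 59. Cntf, a cytokine of the same receptor family, had 3, 10, 13 and 16 reads, and Acvr2a, an activin receptor, 8, 18, 14 and 12. No gene of the list was counted between the library labelled Tut1 and P53 KO and that labelled P53 KO. edgeR called 0 of these genes for Tut1 or Trp53 status.

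**Figure D5:**
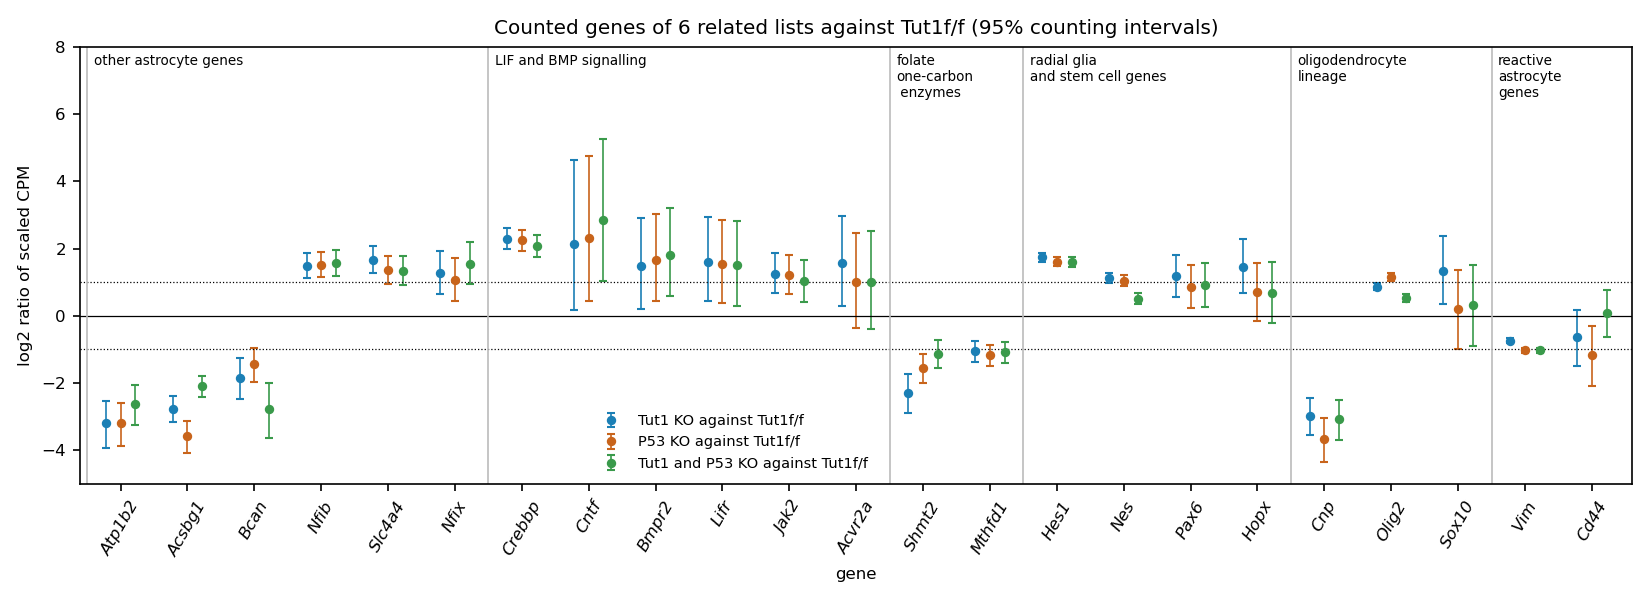
Log2 ratios of TMM-scaled CPM to Tut1f/f (vertical) for the genes of 6 lists counted in the most comparisons (horizontal), in 3 libraries shown by colour, with 95% counting intervals; dotted lines mark 2-fold. Crebbp, Nfib, Slc4a4 and Hes1 lie above 2-fold in all 3 libraries and Atp1b2, Acsbg1 and Cnp below it. The genes were chosen for being counted against Tut1f/f, so that they differ from it is no separate result.

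Of 18 enzymes of the folate pathway in which Aldh1l1 acts, 17 passed the filter and 2 were counted in each comparison with Tut1f/f, both lower, where 13.3%, 15.3% and 9.76% of all genes were counted lower. Shmt2, the mitochondrial serine hydroxymethyltransferase, had 192, 30, 57 and 65 reads, and Mthfd1, the cytosolic enzyme that makes formyl folate, had 318, 117, 123 and 111. Between the library labelled Tut1 and P53 KO and that labelled P53 KO neither was counted, and their log2 ratios were 0.43 (-0.11 to 0.97) and 0.09 (-0.29 to 0.47). Against Tut1 KO, the library labelled Tut1 and P53 KO had Shmt2 counted higher, by 1.15 (0.51 to 1.83). Aldh1l2, the mitochondrial relative of Aldh1l1, had 60, 26, 91 and 52 reads. It was counted in no comparison with Tut1f/f, but lay lower in Tut1 KO than in the library labelled P53 KO, at -1.61 (-2.29 to -0.96), and higher in that labelled Tut1 and P53 KO than in Tut1 KO, at 1.04 (0.33 to 1.78).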

How the data were processed

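Total RNA of cultured neural stem cells was sequenced as PCR-amplified cDNA on Nanopore, 1 library for each of 4 groups. The authors deposited 1 table of whole-number read counts per isoform, not normalized. The build is mm10 per the labels. The aligner, isoform caller and filters of this table, and whether runs were pooled, are not given in the sources used here. The form of its names is that of FLAIR, which the methods name for pallium tissue.

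Counts were summed per Ensembl gene identifier, with symbols from GENCODE M21. The 208527 of 255164 entries that carry a position rounded to 1000 bases and no gene stayed out of library sizes. They were placed in a member's span only as an added view, so neighbours or the other strand may contribute. Ratios are of CPM (reads per 1e6 gene reads) scaled with TMM over all genes, with exact conditional binomial 95% intervals. CPM values have Poisson intervals and shares Wilson intervals. Intervals and floors (3 reads) cover counting error only, because amplified cDNA without molecular identifiers can hold several reads of 1 molecule. For isoform shares, both libraries needed 20 reads of the gene, the isoform 10 over both, and the gene more than 1 isoform. Gene counts were fitted with edgeR 4.0.16 in R 4.3.3 (quasi-likelihood, default filter on low counts, FDR under 0.05 with at least 2-fold), with DESeq2 1.42.0 as the alternative. Intervals and fits were tested on simulated data.

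The members and lists were chosen with earlier results of these data known. Named besides the members are up to 6 genes of each list counted in the most comparisons with Tut1f/f, the larger mean ratio first, the 5 genes nearest to Aldh1l1 in profile, its neighbours within 200 kb, sex-linked genes and the targeted genes. Fabp7, Prom1, Acsl6, Aldh1l2, Slc1a3, P2ry12 and Col1a1 were named after their values were seen. Alternatives were other scalings, filters, thresholds and isoform sets.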

Additional observations from a re-analysis of the deposited data

Results flagged for a closer look

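By the labels, Aldh1l1 lay in opposite directions with Tut1 KO on intact and on deleted Trp53. Its log2 ratio was -3.15 in Tut1 KO against Tut1f/f and 2.93 in the library labelled Tut1 and P53 KO against that labelled P53 KO. The second value rests on the 2 labels that the Tut1 reads went against (14 reads in the library labelled P53 KO, 27 in that labelled Tut1 and P53 KO), and its sign would turn if these labels were exchanged, so that both directions would be the same. With 1 library on each side the difference was not tested, and the gene was chosen by it. The libraries with Y-linked reads are those in which Aldh1l1 was high, and those in which Tut1 reads were high.

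Reads of entries named only by a position, which entered the gene comparisons only where they are said to be added, lay above Tut1f/f for several members. For Sparcl1 the log2 ratio of these reads was 0.90 in Tut1 KO and 1.60 in the library labelled P53 KO, and 0.14 (-0.26 to 0.54) in that labelled Tut1 and P53 KO. For Slc1a2 it was 1.05 in Tut1 KO, 0.64 in the library labelled P53 KO and 0.51 in that labelled Tut1 and P53 KO. For Aldoc it was 0.49 in the library labelled P53 KO and 0.53 in that labelled Tut1 and P53 KO, where reads that named the gene lay below Tut1f/f. For S100b it was 3.75 in the library labelled Tut1 and P53 KO, from 10 reads against 1. Not all members did so: for Aldh1l1 it was -0.65 (-1.54 to 0.20) in the library labelled P53 KO. The share of all reads without a gene was itself 17.2% in Tut1f/f and 27.3% to 30.2% in the others, and its part in these ratios was not tested.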

How the results depend on the processing

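Counts of members that differ rest on few genes. Counted with Aldh1l1, the 1 member of Tut1 KO against Tut1f/f became 2 with a 1.5-fold threshold, 2 over plain Ensembl transcripts only and 2 when position-named reads in the span were added, an alternative chosen after seeing the data. With the 1.5-fold threshold the counts against Tut1f/f became 5 in the library labelled P53 KO and 4 in that labelled Tut1 and P53 KO. At 20 in place of 10 percentage points the counts of member isoforms became 0 in Tut1 KO and in the library labelled P53 KO against Tut1f/f, and 0 between the libraries labelled Tut1 and P53 KO and P53 KO. Of all such counts 40 kept within 1.5 times their value and 8 did not. Of the members' log2 ratios, medians and edgeR fold changes under the alternatives, 260 moved by less than their error (0.1 for a median) and 12 by more, and no ratio of a counted gene changed sign. Ratios that were not counted did: between the libraries labelled Tut1 and P53 KO and P53 KO, Apoe went from 0.79 to -1.35 (-7.06 to 2.29) over plain transcripts only, where it had 1 against 3 reads, and Slc1a2 in Tut1 KO against Tut1f/f went from -0.43 to 0.88 with position-named reads. Over plain transcripts only, Sparcl1 stood at 0.48 in Tut1 KO and 1.02 in the library labelled P53 KO, and Aldh1l1 at -1.49 in that labelled Tut1 and P53 KO, against Tut1f/f. For Trp53 status edgeR called 2 genes in place of 1 when all genes with a read were tested, and 1 with that status as the only term. With position-named reads added, Aldh1l1 was at -1.75 in Tut1 KO and -2.69 in the library labelled P53 KO. Scaling by total gene reads or by all reads moved the median log2 ratio of all genes to between -0.13 and 0.12, and Aldh1l1 in Tut1 KO to between -3.28 and -3.03. No paired analysis was possible because each group had 1 library. Depth limits Aqp4, Clu, S100b and Slc1a2, each with at most 24 reads, and no value has a replicate check.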

Other observations

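Of the genes of other lineages, Cnp was counted lower and Hes1 higher than Tut1f/f in all 3 libraries with Cre mRNA. Cnp, an enzyme of oligodendrocyte membranes, had 319 reads in Tut1f/f, 31 in Tut1 KO, 22 in the library labelled P53 KO and 28 in that labelled Tut1 and P53 KO, while Olig2, a transcription factor of the lineage, had 998, 1391, 1953 and 1073. Sox10, a later factor of the lineage, had 14, 27, 14 and 13. Of 6 oligodendrocyte lineage genes past the filter, 1, 1 and 0 were counted higher and 1 lower each time, beside the shares of all genes (12.7%, 12.5% and 10.3% higher; 13.3%, 15.3% and 9.76% lower). Among stem cell genes, Hes1, a Notch target, had 594, 1513, 1586 and 1334 reads and Nes, the stem cell filament nestin, 555, 926, 1007 and 588. Pax6 had 35, 60, 56 and 49 and Hopx, of outer radial glia, 21, 44, 30 and 25. Of 10 stem cell genes past the filter, 4, 2 and 1 were counted higher than Tut1f/f in the 3 libraries, where 12.7%, 12.5% and 10.3% of all genes were, and 0 lower, and of 6 neuron genes 0 were counted.

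Genes of reactive astrocytes were mostly at 0: 11 to 12 of 20 had no read. Vim, the filament vimentin of radial glia and astrocytes, had 5030, 2296, 2158 and 1836 reads and was counted lower in the libraries labelled P53 KO and Tut1 and P53 KO. Cd44, a hyaluronan receptor, had 41, 20, 16 and 32 reads, or 10.3, 6.60, 4.59 and 10.8 CPM. It was counted lower in the library labelled P53 KO than in Tut1f/f. Of 5 reactive genes past the filter, 0, 2 and 1 were counted, all lower, where 13.3%, 15.3% and 9.76% of all genes were counted lower. Among genes related to members, S100a1 had 80, 129, 101 and 108 reads and was counted higher in Tut1 KO. Of 6 such genes past the filter Vim was the other counted, lower in the libraries with a P53 label.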
